A study of Mus musculus with 48 samples.

Results

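p53, encoded by Trp53 in mice, is a transcription factor that responds to DNA damage and other stress. The genes described here are Trp53, its inhibitors Mdm2 and Mdm4, and 6 genes known as p53 targets, namely Cdkn1a, Ccng1, Zmat3, Sesn2, Phlda3 and Ppm1d. They were chosen by name, by matching gene identifiers to mouse symbols. Of the 9 listed genes, 7 had a value in at least 1 library and 6 (Mdm4, Cdkn1a, Ccng1, Sesn2, Phlda3 and Ppm1d) had one in all 48 libraries, among 23862 gene identifiers of which 10694 were listed in every library. Trp53 and Zmat3, which encodes a zinc-finger RNA-binding protein, were not analysed here, so nothing below measures the p53 transcript itself.

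The cells were E14TG2a, 1 line of mouse embryonic stem cells, grown in 2i medium with LIF, and every library came from cells treated with 1 µM flavopiridol. Flavopiridol inhibits CDK9, which lets polymerase leave its pause near the start of genes, so the treatment blocks new transcription. Polyadenylated RNA was taken at 30, 60, 120 and 240 min from the whole extract (total) and from nuclear, cytosolic and membrane fractions, the last 2 released by digitonin and then NP-40, with 3 separately passaged replicates at each time and 12 libraries per fraction. Each value is a ratio to 0 min in the same fraction, so all times of a fraction share their 0 min libraries, which were not analysed here, and there was no untreated time course. A protocol text of the labels puts the last harvest at 180 min, whereas sample titles give the 240 min used below. Libraries listed 15067 to 19501 genes and held at least 4637994 to 6992712 reads, a minimum recovered from the spacing of the ratios. The nuclear 30 min library of replicate 1 stood apart, with a median ratio of 0.592 against 0.949 and 0.823 in the other two. Of 10 embryonic stem cell markers, 8 were listed in every library and the others in 37 (Esrrb) and 47 (Zfp42). None of 7 fibroblast markers was listed in every library, and 3 of them (Pdgfra, Pdgfrb and Postn) had no value. However, Col1a1 was listed in 44 libraries, Thy1 in 43, Col1a2 in 12 and Col3a1 in 3. In bulk RNA, fewer cells and less RNA per cell cannot be told apart.

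In unstressed cells p53 is kept low because Mdm2, an E3 ubiquitin ligase, marks it for degradation and Mdm4, a related protein, masks its activation domain. Mdm2 is itself switched on by p53, which closes a feedback loop, and Ppm1d encodes the phosphatase Wip1, another target that dampens the response. Among the effectors, Cdkn1a encodes the cyclin-dependent kinase inhibitor p21, Ccng1 encodes cyclin G1, Sesn2 encodes sestrin 2, which restrains mTORC1 under stress, and Phlda3 encodes a PH-domain protein that competes with Akt for membrane lipids. Once transcription is blocked, the level of a transcript in a fraction reflects decay, loss to other fractions and, outside the nucleus, continued arrival of exported RNA.

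The promoters of these genes are shown because p53 binds a pair of decameric half-sites, and 4 of the members carry at least 1 in the 300 bases from 250 before to 50 after the RefSeq start (GRCm38.p6). The capitals mark matches to the p53 half-site on either strand, allowing a total of 1 mismatch where a pair of half-sites lies within 13 bases.

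Cdkn1a, chr17:29090886-29090967, plus strand: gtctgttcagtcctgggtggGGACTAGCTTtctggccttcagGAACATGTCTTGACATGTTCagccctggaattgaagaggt

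Ccng1, chr11:40755442-40755501, minus strand: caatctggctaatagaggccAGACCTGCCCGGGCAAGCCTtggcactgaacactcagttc

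Mdm2, chr10:117710915-117710964, minus strand: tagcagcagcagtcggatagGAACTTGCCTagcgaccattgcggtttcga

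Ppm1d, chr11:85311102-85311151, plus strand: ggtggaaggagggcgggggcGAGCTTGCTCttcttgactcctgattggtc

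In the first Cdkn1a window, the marked stretch ran from base -73 to base -32 and held 2 exact half-sites, 12 bases apart, the second of which abutted another decamer with 1 mismatch. These positions count from the upstream of 2 RefSeq starts of Cdkn1a. The window of the other start was chr17:29093519-29093818. In the Ccng1 window, 2 abutting decamers with 1 mismatch lay at -195 to -176. Mdm2 had 1 half-site at -186 to -177 and Ppm1d had 1 at -132 to -123, each without a partner. Over 32851 promoter windows of the same length, 8.36% held a half-site and 0.627% held a pair. No match lay in either Mdm4 window, in the second Cdkn1a window or in those of Sesn2 and Phlda3, and Zmat3 had no entry. A match is a description of the letters and not a measured binding site.

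The question was how fast these transcripts declined in each compartment after the block. All 6 members that could be tested fell with time in every fraction, by slopes of the log2 ratio that ran from -0.21 ± 0.04 per hour (SE) for Mdm4 in total RNA to -1.69 ± 0.12 per hour for Cdkn1a in the cytosol. Cdkn1a, Ppm1d and Phlda3 were fast in each fraction. In total, cytosolic and membrane RNA Ccng1 and Sesn2 were intermediate and Mdm4 slow. In the nucleus Sesn2 (-0.36 per hour) lay nearer to Mdm4 (-0.31) than to Ccng1 (-0.47). Slopes were called with limma at a Benjamini-Hochberg adjusted p under 0.05 over all genes listed in the 12 libraries of a fraction. A falling slope was also called for 56.9% of all genes in total, 61.9% in nuclear, 67.1% in cytosolic and 62.2% in membrane RNA, so that 6 of 6 members falling has to be read against a majority of all genes. Rising slopes were called for 3.39%, 3.32%, 2.95% and 4.09% of genes in the same order and for 0 members, which was also the number at an unadjusted p under 0.05 and with voom weights. Their median slope was -0.73, -0.75, -0.79 and -0.76 per hour (total, nuclear, cytosolic and membrane RNA), beside medians of -0.22, -0.30, -0.28 and -0.26 over all genes. These directions depend on the authors' scaling to long-lived genes. After centring of every library on the median gene, 3961 genes fell and 3672 rose among those of total RNA, and for nuclear, cytosolic and membrane RNA the pairs were 3897 and 3954, 3887 and 3520, and 3837 and 3513. Of the members 5, 4, 5 and 5 still fell, and 0 rose. With libraries scaled to the median mitochondrially encoded (mt-) gene, the nuclear calls of Mdm4, Ccng1 and Sesn2 were lost.

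**Figure D1:**
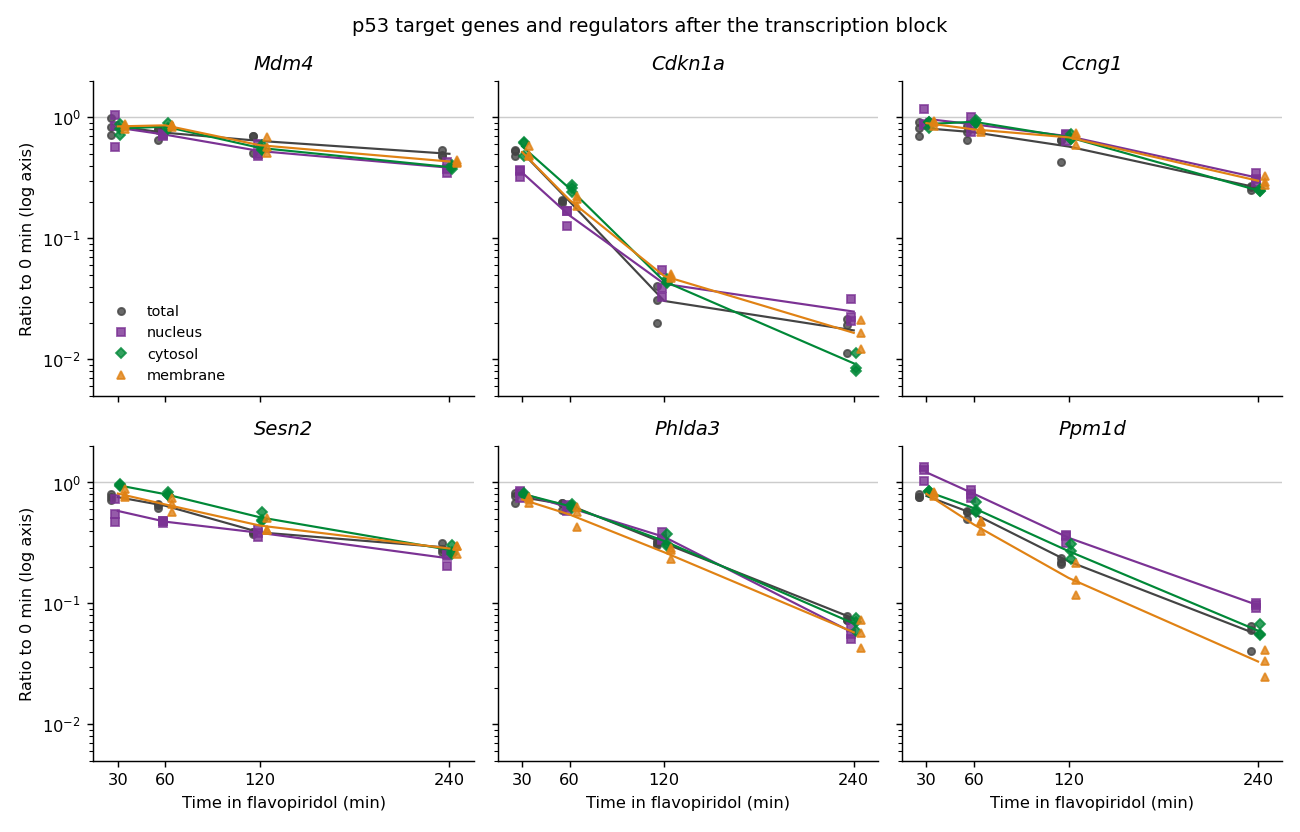
Ratio to 0 min (log axis) against time in minutes for the 6 members listed in all libraries, 1 panel per member, with a point for each of 3 replicates and a line through the mean in each of the 4 fractions. Cdkn1a reached a mean of 0.0174 in total RNA at 240 min, whereas Mdm4 was still at 0.500.

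Mdm2 had few values. It was listed in 10 of the 48 libraries, 7 of them nuclear and 3 total, and in none of the 24 cytosolic and membrane libraries. In the nucleus its ratios at 30 min were 0.0838, 0.659 and 0.216 in replicates 1, 2 and 3, and they rested on as few as 1, 5 and 2 reads. At 240 min they were 0.253, 0.511 and 0.333 on 4, 9 and 6 reads, and at 120 min replicate 1 alone was listed, at 0.0764 on 1 read. In total RNA replicates 2 and 3 at 60 min had 0.381 and 0.419 on 1 read each, and replicate 3 at 240 min had 0.581 on 2 reads. The nuclear 30 and 240 min values overlapped, the single 120 min value lay below both, and the single total value at 240 min lay above those at 60 min. The 95% exact Poisson interval of 4 reads is 1.09 to 10.2 reads, which covers counting error only, and no fold or test is given. Why Mdm2 had no value in the other libraries was not tested. Other genes of the pathway also lacked values. The p53 regulators Aurka and Sirt1 had none in any library, Atr had one in 3 and the p53 target Bax in 9 of the 48. What a missing value says about the level of a transcript was not tested. None of the 75-base windows of the Mdm2 transcript occurs in another annotated gene.

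Mdm4, the other inhibitor, was the slowest of the 6. In total RNA its ratios were 0.710, 0.984 and 0.830 at 30 min and 0.488, 0.538 and 0.476 at 240 min, in replicates 1 to 3. The 240 min libraries all lay below the 30 min ones. The slope of -0.21 ± 0.04 per hour (limma adjusted p = 0.00094) put Mdm4 at the 52.5th percentile of all genes from the steepest fall, which is the middle of the transcriptome. Between 30 and 240 min nuclear Mdm4 went from 0.823 ± 0.246 (SD, n = 3) to 0.384 ± 0.040, cytosolic Mdm4 from 0.807 ± 0.085 to 0.389 ± 0.014 and membrane Mdm4 from 0.843 ± 0.039 to 0.432 ± 0.014, and the corresponding slopes lay between -0.33 and -0.30 per hour. With libraries centred on the median gene the Mdm4 slope was +0.02 in total RNA and +0.01 in the nucleus, and it was no longer called in any fraction. The call was also lost in total RNA with equal sums of ratios or with 30 to 120 min only, and in the cytosol with mt- scaling. Of its 75-base windows 6.14% also occur in the pseudogene Mdm4-ps, and Mdm4 overlaps Gm29257, so a part of its reads is uncertain.

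Ppm1d, which encodes the phosphatase Wip1, fell steeply in each fraction, and its ratio to 0 min was highest in the nucleus throughout. As a share of all reads of a library it was lower in the nucleus than in the cytosol, at 0.818 times at 30 min and 0.883 at 240 min. In the nucleus its ratios at 30 min were 1.02, 1.35 and 1.26, all above the 0 min level, whereas in total RNA they were 0.762, 0.755 and 0.803. By 240 min they were 0.0971, 0.101 and 0.0918 in the nucleus, as against 0.0403, 0.0646 and 0.0606 in total RNA and 0.0245, 0.0414 and 0.0333 in the membrane fraction. The nuclear ratios of Ppm1d were thus above those of all libraries of the other fractions at both times. The cytosolic ratios ranged from 0.835 to 0.858 at 30 min and from 0.0549 to 0.0679 at 240 min. The slope of Ppm1d was -1.11 ± 0.06 per hour for total (limma adjusted p = 1.7e-08), -1.04 ± 0.05 for nuclear, -1.11 ± 0.04 for cytosolic and -1.31 ± 0.07 for membrane RNA, within the steepest 5.17% of genes in every fraction. The lowest Ppm1d value in the membrane fraction at 240 min rested on at least 15 reads.

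Cdkn1a had the lowest mean ratio of the 6 members at 240 min in every fraction, and the steepest slope in all but the nucleus, where Phlda3 was steeper. In total RNA its ratios were 0.480, 0.536 and 0.528 at 30 min, 0.203, 0.206 and 0.197 at 60 min, 0.0201, 0.0311 and 0.0400 at 120 min, and 0.0193, 0.0216 and 0.0112 at 240 min. The groups did not overlap between 30, 60 and 120 min, whereas those at 120 and 240 min did. In the cytosol the ratio went from 0.577 ± 0.082 (SD, n = 3) at 30 min through 0.259 ± 0.017 and 0.0442 ± 0.0016 to 0.00926 ± 0.00176 at 240 min, so that less than 1% of the starting level remained. In the nucleus it was already at 0.350 ± 0.023 at 30 min but only down to 0.0248 ± 0.0057 at 240 min, and in the membrane fraction it ended at 0.0166 ± 0.0044. The slope in total RNA was -1.37 ± 0.20 per hour (limma adjusted p = 5.1e-05) and that in the cytosol -1.69 ± 0.12 (adjusted p = 5.8e-08), and Cdkn1a was among the steepest 0.921% and 0.330% of genes there. At 240 min the cytosolic values rested on 16, 16 and 21 reads, and 16 reads have a 95% exact Poisson interval of 9.15 to 26.0. Of the 75-base windows of Cdkn1a, 9.37% occur in AC167363.2, which lies on the opposite strand.

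In the cytosol Ccng1 stayed high for the first hour and fell later. Its cytosolic ratios were 0.823, 0.911 and 0.910 at 30 min, 0.904, 0.904 and 0.955 at 60 min, 0.736, 0.666 and 0.660 at 120 min, and 0.254, 0.245 and 0.248 at 240 min. The 30 and 60 min libraries overlapped, and every 240 min library lay below every 120 min one. The slope of Ccng1 in total RNA was -0.48 ± 0.05 per hour (limma adjusted p = 2.8e-06), at the 24.3rd percentile from the steepest fall, and it lay between -0.55 and -0.45 in the other fractions. Sesn2, the sestrin gene, declined at a similar slope, and for neither gene was the step from 30 to 60 min called in any fraction. Its total ratios were 0.803, 0.752 and 0.713 at 30 min, 0.378, 0.390 and 0.392 at 120 min and 0.268, 0.279 and 0.319 at 240 min. None of these groups overlapped, and the slope was -0.40 ± 0.05 per hour (limma adjusted p = 6.3e-06), with -0.36 ± 0.05 for nuclear, -0.51 ± 0.03 for cytosolic and -0.42 ± 0.04 for membrane RNA. With libraries centred on the median gene the nuclear slope of Sesn2 was no longer called. Sesn2 overlaps the annotated gene Gm12981.

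Phlda3, the Akt antagonist, fell in every fraction, although its step from 30 to 60 min was not called in any. In total RNA its log2 ratio changed by -0.44 ± 0.27 per hour (SE) between 30 and 60 min. The later rates were -1.04 ± 0.13 between 60 and 120 min and -1.03 ± 0.07 between 120 and 240 min. The total ratios of Phlda3 were 0.813, 0.775 and 0.679 at 30 min, 0.679, 0.677 and 0.590 at 60 min, 0.304, 0.313 and 0.326 at 120 min, and 0.0735, 0.0723 and 0.0793 at 240 min. Replicates were close to each other at 240 min, at 0.0750 ± 0.0037 (SD, n = 3). The slope of Phlda3 was -0.98 ± 0.04 per hour for total (limma adjusted p = 1.2e-08), -1.11 ± 0.06 for nuclear, -1.04 ± 0.04 for cytosolic and -1.06 ± 0.06 for membrane RNA, within the steepest 4.97% of genes in each.

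**Figure D2:**
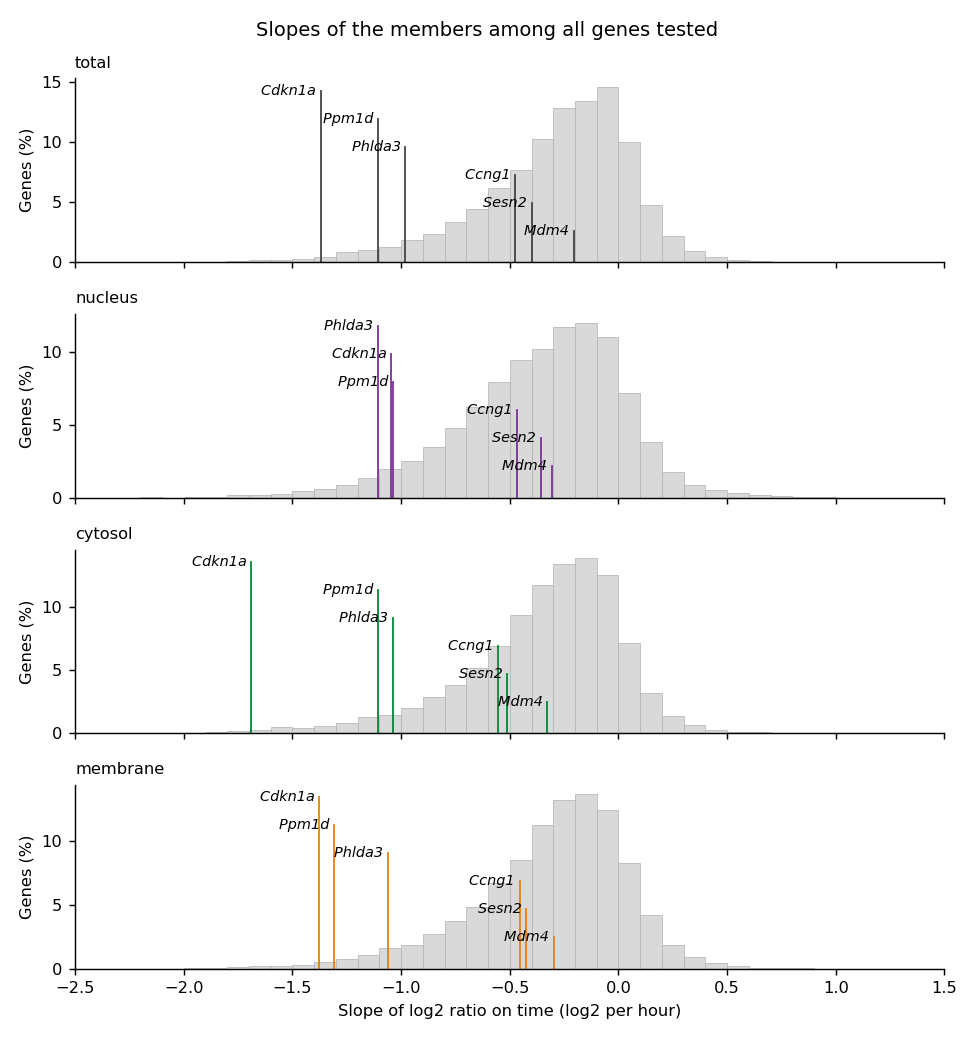
Slope of the log2 ratio per hour for each of the 6 members in the 4 fractions, over the distribution of slopes of all genes tested. Each member is a vertical line whose height has no meaning, and no SE is drawn. Cdkn1a in the cytosol is the lowest at -1.69 ± 0.12, and Mdm4 lies beside the median of all genes in each fraction.

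Each member was next followed from one time point to the next, as 18 pairs of a gene and a step in each fraction. In limma 9 pairs were called down for total, 7 for nuclear, 13 for cytosolic and 12 for membrane RNA, where over all genes 19.3%, 16.2%, 28.1% and 25.3% of pairs were called down. No pair was called up, against 2.21%, 0.962%, 1.23% and 1.76% of all pairs, and none was up at an unadjusted p under 0.05 or with voom weights. After centring on the median gene, the pairs of all genes called down and up were 4063 and 2839 in total, 3818 and 2963 in nuclear, 4456 and 3264 in cytosolic and 4185 and 3254 in membrane RNA, and the member pairs called down were 6, 5, 9 and 8, with 0 up. Cdkn1a was the one member called between 30 and 60 min, in total RNA (-1.35 ± 0.30 on the log2 scale, adjusted p = 0.049), the cytosol (-1.15 ± 0.17, adjusted p = 0.019) and the membrane fraction (-1.31 ± 0.20, adjusted p = 0.010). Between 60 and 120 min Cdkn1a, Phlda3 and Ppm1d were called down in all 4 fractions, Sesn2 in 3, Mdm4 in the cytosol and the membrane fraction, and Ccng1 in the cytosol. Between 120 and 240 min Ccng1, Sesn2, Phlda3 and Ppm1d were called in all 4, and Cdkn1a and Mdm4 in the cytosol and the membrane fraction. The cytosolic count stayed at 10 to 12 without any one replicate, whereas the others depended on them, since leaving out replicate 2 gave 3 total, 3 nuclear and 6 membrane pairs, and leaving out replicate 3 gave 4 total and 3 nuclear pairs. Without replicate 1 the membrane count was 6, and without the nuclear 30 min library of replicate 1 the nuclear count was 12.

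The slowing of Cdkn1a was the clearest change of pace. Its log2 ratio in total RNA changed by -2.70 ± 0.60 per hour (SE) between 30 and 60 min and by -2.79 ± 0.30 between 60 and 120 min, but by -0.40 ± 0.15 between 120 and 240 min. The rate from 120 to 240 min minus that from 30 to 120 min, a contrast chosen after the values were seen, was +2.35 ± 0.30 log2 per hour for total Cdkn1a (limma adjusted p = 0.0024), +1.68 ± 0.29 for the nuclear (adjusted p = 0.013), +1.33 ± 0.17 for the cytosolic (adjusted p = 0.0027) and +1.47 ± 0.21 for the membrane transcript (adjusted p = 0.0031). Over all genes such a slowing was called for 12%, 5.09%, 4.83% and 11.4%, and its opposite for 0.666%, 1.31%, 1.75% and 2.82%. With libraries centred on the median gene a slowing was called for 605, 1029, 659 and 784 genes and its opposite for 595, 881, 661 and 1060, and Cdkn1a kept the call in each fraction. The cytosolic call was lost with mt- scaling and without any one of the replicates (adjusted p = 0.068 to 0.11), the nuclear and membrane ones without replicate 2 or replicate 3, and the one in total RNA without replicate 2, while the estimate stayed between +1.19 and +2.75 in every such fit. At 240 min Cdkn1a rested on 15 to 30 reads in total RNA and 14 to 24 in the membrane fraction, and what part low counts have in the slowing was not tested. Sesn2 slowed in total RNA (+0.43 ± 0.11, adjusted p = 0.034), a call lost under each other scaling, without the filter and without any one of the replicates. Ccng1 went the other way in the cytosol, where its fall quickened by 0.49 ± 0.08 log2 per hour (estimate -0.49, adjusted p = 0.0083), and this call was also lost with mt- scaling and without any one of the replicates.

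**Figure D3:**
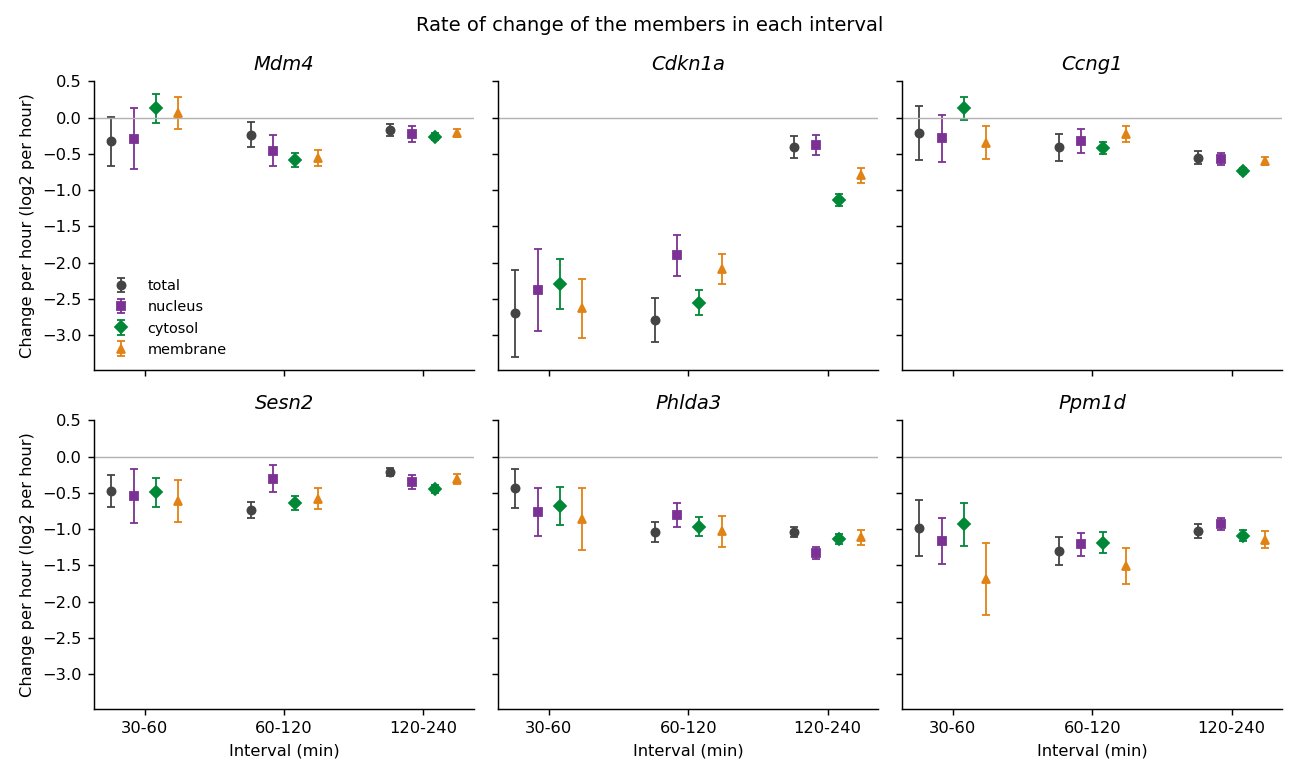
Change of the log2 ratio per hour in each of the 3 intervals between time points, with bars of 1 SE, for the 6 members in the 4 fractions. Cdkn1a in total RNA went from -2.79 ± 0.30 per hour between 60 and 120 min to -0.40 ± 0.15 between 120 and 240 min, whereas Ccng1 in the cytosol was fastest in the last interval.

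Half-lives from a single exponential, which describe the net fall in a fraction, differed widely among the members. In total RNA they were 22.2 ± 0.9 min (SD over fits to single replicates, n = 3) for Cdkn1a, 53 ± 4 for Ppm1d, 71.3 ± 6.8 for Phlda3, 128 ± 23 for Sesn2, 140 ± 5 for Ccng1 and 279 ± 60 for Mdm4. The single-replicate fits of Cdkn1a lay below those of Ppm1d in every fraction, and those of Phlda3 lay below those of Sesn2 in every fraction. Ppm1d and Phlda3 separated in total RNA (48.7 to 55.6 against 66.1 to 79.3 min) and in the membrane fraction but overlapped in the nucleus and cytosol. Sesn2 and Ccng1 overlapped everywhere but in the cytosol, where Sesn2 took 106 to 118 min and Ccng1 129 to 155 min. Ccng1 and Mdm4 separated in total RNA and the cytosol only. In the nucleus the half-life of Mdm4 was 178 ± 172 min, with single fits from 116 to 428 min, so its place in the order there lies within the spread. A straight line on the log2 scale gave 43.8, 57.5 and 43.6 min for total, nuclear and membrane Cdkn1a. When curves were forced through 1 at 0 min, nuclear Sesn2 had a half-life of 69.7 min, within the range of Phlda3 there, and nuclear Ppm1d one of 112 min. From 30 to 120 min alone, cytosolic Ccng1 had 243 and membrane Ccng1 232 min. Centring on the median gene lengthened 12 of 22 half-lives by over 1.5 times, among them all 4 of Ccng1 and all 4 of Sesn2.

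**Figure D4:**
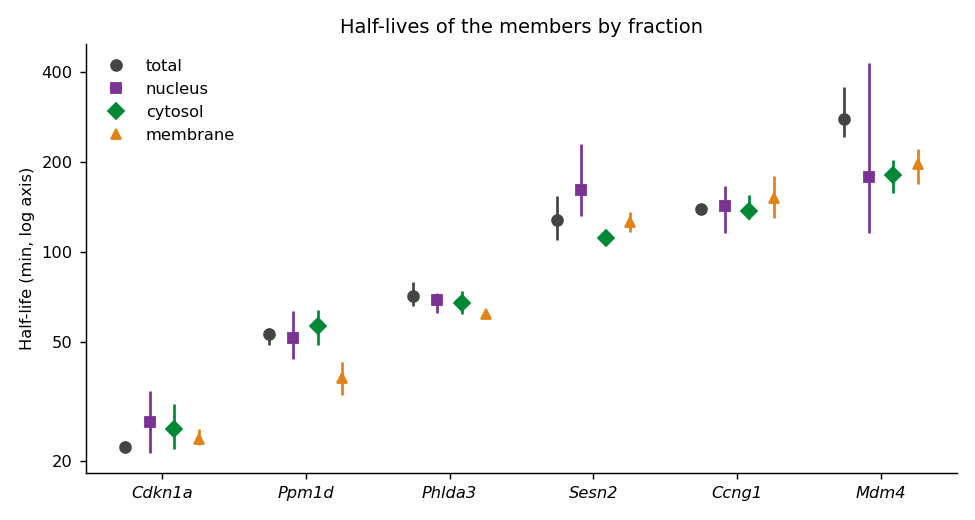
Half-life in minutes (log axis) from a single exponential for the 6 members in the 4 fractions, with bars from the lowest to the highest fit to a single replicate. Cdkn1a lies between 22.2 and 27.0 min in every fraction and Mdm4 between 178 and 279 min.

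Whether a transcript declined at another pace in one compartment was tested as a difference of slopes over 24 libraries. Between nucleus and cytosol 2 of 6 members were called, where 20.6% of all genes were. The slope of Cdkn1a was less steep in the nucleus, by +0.64 ± 0.19 log2 per hour (limma adjusted p = 0.017), and that of Sesn2 by +0.15 ± 0.05 (adjusted p = 0.034). For Cdkn1a the log2 steps from 30 to 60 min were -1.19 ± 0.28 in the nucleus and -1.15 ± 0.17 in the cytosol, while those from 120 to 240 min were -0.75 ± 0.28 and -2.27 ± 0.17, and the single-replicate half-lives overlapped (21.2 to 34.3 and 21.9 to 31.0 min). Between nucleus and membrane fraction Ppm1d was called, with +0.27 ± 0.08 (adjusted p = 0.044), where 8.35% of all genes were. Between membrane fraction and cytosol 0 members were called in limma, with 1 at an unadjusted p under 0.05 and 0 with voom weights, where 6.7% of all genes were called. The counts of members are too small to set apart from these shares. Among all genes called, 932 had a lower and 1377 a higher slope in the nucleus than in the cytosol, and 717 and 255 than in the membrane fraction, but with mt- scaling the latter split was 39 and 3859, with a median difference of +0.31 over all genes. All 3 calls were lost without any one of the replicates, and that of Cdkn1a also with a pseudocount, which compresses low ratios (+0.23 with 0.1 and +0.06 with 1). The Ppm1d difference was -0.01 with a pseudocount of 0.1 and -0.07 with 1. For Mdm4 the differences were +0.02 ± 0.06, +0.03 ± 0.05 and -0.01 ± 0.06 in the 3 comparisons, for Ccng1 +0.09 ± 0.06, +0.10 ± 0.06 and -0.01 ± 0.06, and for Phlda3 -0.07 ± 0.07, -0.02 ± 0.07 and -0.05 ± 0.08, none of them called.

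Ratios do not say where a transcript sits, but the recovered reads give its share of each library. The ratios of 78255 of 78270 series of a gene in a fraction were those of whole numbers within a relative tolerance of 1e-10, and the smallest such numbers were taken as reads. Mdm4 took 1109 to 1668 of every 1000000 reads (RPM) in the 12 nuclear libraries and 286 to 412 in the 12 cytosolic ones, so the groups did not overlap. The share was 4.11 times higher in the nucleus at 30 min, where the median gene had 1.07, and this put Mdm4 at the 84.7th percentile. Over all genes 18.2% lay above in the nucleus without overlap and 10.8% below. The other 5 members overlapped between the fractions, with nuclear over cytosolic shares at 30 min of 0.484 for Phlda3, 0.501 for Cdkn1a, 0.511 for Sesn2, 0.650 for Ccng1 and 0.818 for Ppm1d. For Cdkn1a this quotient rose to 2.07 at 240 min. These are shares of a library and not amounts per cell, because the RNA content of each fraction was not used here.

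**Figure D5:**
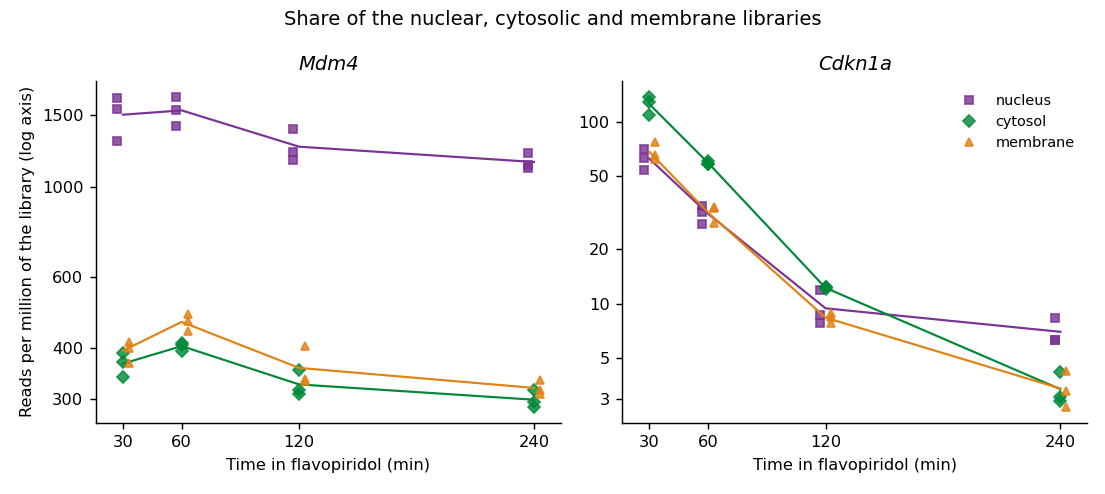
RPM, the reads of a gene per 1000000 reads of the library (log axis), against time in minutes for Mdm4 and Cdkn1a in the nuclear, cytosolic and membrane libraries, with a point for each of 3 replicates. The nuclear points of Mdm4 (1109 to 1668) lie above all its cytosolic points (286 to 412), whereas for Cdkn1a the nuclear points start below the cytosolic ones and end above them.

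Levels compared between genes need a length. RPM divided by the kilobases of the transcript with the longest coding sequence came in total RNA at 30 min to 497 ± 48 for Ccng1 (SD, n = 3), 257 ± 33 for Mdm4, 106 ± 13 for Phlda3, 103 ± 10 for Sesn2, 40.5 ± 0.8 for Cdkn1a and 25.3 ± 1.2 for Ppm1d. The replicates of Phlda3 and Sesn2 overlapped and other neighbours in this order did not. The most abundant members on this scale, Ccng1 and Mdm4, were among the slow ones and the least abundant, Ppm1d and Cdkn1a, among the fast ones. However, these levels were taken 30 min into the block, when total Cdkn1a was already at 0.515 of its 0 min level and Mdm4 at 0.841. Level and pace are therefore not separate measures here. The Mdm4 transcript taken has a 3′ UTR of 302 bases, and a longer transcript would give a lower level.

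AU-rich elements in 3′ UTRs are known to mark mRNAs for rapid decay. Whether they bear on the slopes of the members was not tested. In the same transcripts ATTTA occurred 8 times in the 3′ UTR of Mdm2, 8 times in Ccng1, 4 times in Cdkn1a, 3 times in Ppm1d, once in Mdm4 and Sesn2, and 0 times in Phlda3. Per kilobase of 3′ UTR this came to 5.99, 3.45, 3.00, 3.44, 3.31 (Mdm4), 0.594 (Sesn2) and 0, beside a median of 1.24 over all genes. The longer TATTTAT, which contains ATTTA, occurred in Mdm2 and Ccng1. Both windows are shown (GRCm38, capitals mark the heptamer).

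Mdm2, chr10:117688916-117688941, minus strand: cattgatgtTATTTATttgcaaataa

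Ccng1, chr11:40749078-40749103, minus strand: ctgaaaatgTATTTATtgcactaaag

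Over 9714 genes 65.9% held ATTTA and 27.3% held TATTTAT in the 3′ UTR, and the median gene had 1 ATTTA in 988 bases. The transcript of Phlda3 (chr1:135766119-135769136, plus strand) is the shortest of the members at 1435 bases in 2 exons, and that of Ccng1 (chr11:40748552-40755311, minus strand) the longest at 3512 bases in 6 exons.

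The wider pathway was described by 31 other p53 targets and 22 regulators of p53. Of the targets that could be tested, 26 of 27 fell in total, 27 of 27 in nuclear, 26 of 26 in cytosolic and 24 of 26 in membrane RNA, and 0 rose in any, also at an unadjusted p, where 56.9%, 61.9%, 67.1% and 62.2% of all genes fell. Their median slope was -0.53 in total RNA, beside -0.22 over all genes. The steepest in total RNA were Plk2, a polo-like kinase (-1.42 ± 0.08 per hour), the kinase gene Dyrk3 (-1.33 ± 0.13) and Btg2, an antiproliferative deadenylase cofactor (-1.21 ± 0.06). Dram1 (-0.24 ± 0.10) was the target not called there. Plk2 ended at 0.0170 ± 0.0013 of its 0 min level in total RNA, next to 0.0174 ± 0.0055 for Cdkn1a. Of 17 regulators tested, 7 fell and 1 rose in total RNA, with a median slope of -0.09, and 10, 12 and 9 fell among nuclear, cytosolic and membrane RNA, where the shares of all genes falling were again 56.9%, 61.9%, 67.1% and 62.2%. Setd7 was the regulator that rose in total RNA and also in membrane RNA (+0.11 ± 0.05, limma adjusted p = 0.049). Over all genes 3.39% rose in total and 4.09% in membrane RNA, and 1 of 17 regulators cannot be set apart from these shares. From 30 to 240 min its ratio went from 0.767 ± 0.024 to 0.991 ± 0.055 (SD) in total RNA, which is near the 0 min level. In the membrane fraction the ratio went from 0.946 ± 0.127 to 1.18 ± 0.14. The Setd7 slope was not called in the nucleus (+0.13 ± 0.05) or the cytosol (-0.03 ± 0.03). The falling slopes in total RNA were led by Trp53bp1, a reader of damaged chromatin (-0.64 ± 0.15 per hour), and the acetyltransferase genes Ep300 (-0.56 ± 0.05) and Kat5 (-0.47 ± 0.03), whereas the methyltransferase gene Setd7 rose at +0.12 ± 0.04 (limma adjusted p = 0.022).

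The time courses of the members were correlated with each other, as they were with those of many other genes. Over the 48 libraries Pearson's r of the log2 ratios ran from 0.837 (Mdm4 and Ppm1d) to 0.960 (Phlda3 and Ppm1d), whereas the median r of a member with all other genes lay between 0.572 and 0.655 and the 95th percentile between 0.890 and 0.939. All pairs with Mdm4 (highest 0.883) lay below its 95th percentile of 0.890, and all with Cdkn1a (highest 0.914) below 0.929. Phlda3 with Ppm1d and with Ccng1 (0.949) lay above the 95th percentiles of both genes, and Ccng1 with Ppm1d (0.929) above that of Ccng1 (0.924). The libraries share their 0 min references within a fraction and the trend with time, so no p is given. The genes most like Cdkn1a by this measure were Hyls1 (r = 0.985), Klf4 (0.984) and Sox2 (0.984), of which Klf4 and Sox2 encode pluripotency factors. In total RNA their ratios at 240 min were 0.0287 for Hyls1, 0.0338 for Klf4 and 0.0288 for Sox2.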

How the data were processed

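The authors aligned stranded polyadenylated RNA reads to mm10 with STAR 2.7.6, counted them with RSEM 1.3.3, scaled libraries on genes of long half-life and divided by 0 min; the deposited values are therefore a ratio to 0 min, although the headings name normalized read counts. No value of 0 is listed, and a missing value is not shown to be a 0. Groups and replicates came from the titles. Of 23862 identifiers, 23786 matched a symbol. The members and lists were chosen with earlier results of these data known.

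Slopes, steps and slope differences are two-sided limma tests (version 3.58.1 under R 4.3.3, moderated with a mean trend) on log2 ratios without a pseudocount, over genes listed in all libraries of a fit, at a Benjamini-Hochberg adjusted p under 0.05. The design written earlier assumed counts where the files hold ratios. Single exponentials were fitted to the ratios by least squares in Python 3.11.15 for half-lives. Reads are the smallest whole numbers with the deposited ratios (99.98% of series). In simulated data 100 genes were given a slope of each size and nearly all others were flat, among 12762 genes for total RNA. There 52% of slopes of 0.3 log2 per hour were recovered, and 85% of those of 0.6. In the real total RNA 56.9% of genes were called falling, which moves the adjusted threshold. The simulated shares therefore do not give the recovery in the real fits. For slope differences between nucleus and cytosol the shares were 57% at 0.3 and 80% at 0.6. Of total steps of 1.2 log2 between 120 and 240 min 44% were recovered. Smaller effects were not simulated, so a member that was not called may still differ. Genes named from lists were the 3 steepest falls and rises called in total RNA, and those most like Cdkn1a the 3 highest r. Promoters came from RefSeq (GRCm38.p6), and transcripts and positions from the supplied GRCm38 annotation, whose release may differ from the authors'. Alternatives covered scaling, pseudocounts, filters, blocks, left-out replicates, time windows and voom weights.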

Additional observations from a re-analysis of the deposited data

Results flagged for a closer look

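Differences between fractions under the same treatment drew attention to 3 results. The slope of Cdkn1a was less steep in the nucleus than in the cytosol by 0.64 log2 per hour, that of Sesn2 by 0.15 log2 per hour, and that of Ppm1d was less steep in the nucleus than in the membrane fraction by 0.27 log2 per hour. Each passed the limma test of the difference itself with all replicates, and each lost the call without any one of the 3 replicates. Over the alternatives tried the Cdkn1a difference lay between 0.06 and 0.86, that of Sesn2 between 0.08 and 0.22, and that of Ppm1d between -0.07 and 0.59. The ratio of Cdkn1a to 0 min was lower in the nucleus than in the cytosol at 30 min (0.350 ± 0.023 against 0.577 ± 0.082, SD, n = 3). It was higher in the nucleus at 240 min (0.0248 ± 0.0057 against 0.00926 ± 0.00176), without overlap of the replicates at either time.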

How the results depend on the processing

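The 6 members fell in each fraction in all fits with another pseudocount, filter, variance model or set of replicates, while scaling and time windows mattered. Scaling to the median mt- gene left 3 members falling in the nucleus. For steps down, the counts without a replicate were 3 to 9 in total RNA, 3 to 6 in the nucleus and 6 to 8 in the membrane fraction; mt- scaling gave 3 in the nucleus and leaving out the nuclear 30 min library of replicate 1 gave 12. Of slope differences between nucleus and cytosol, 0 members were called without any one replicate, with 30 to 120 min only or with mt- scaling, and 1 with a pseudocount of 0.1, a pseudocount of 1, no filter, or without that nuclear library. Between nucleus and membrane fraction the number was 0 with either pseudocount, no filter, 30 to 120 min only, without that library or without any one replicate, and 3 with mt- scaling. Between membrane fraction and cytosol it was 1 with median-gene centring, equal sums of ratios, mt- scaling or 180 min as last time.

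With each library set to its median gene, deviations of same-numbered libraries of a fraction correlated with medians of -0.01 to 0.03. In total RNA 3 of 18 such pairs exceeded 0.1, the highest at 0.19. A shift shared by all genes of a replicate cannot be seen in this way. With the replicate block, 0 members differed between nucleus and membrane fraction (Ppm1d +0.27, not called), and 2 between nucleus and cytosol.

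Reversed values were those of Mdm4 under centring (+0.023 in total RNA, +0.010 in the nucleus); under mt- scaling the cytosolic steps of Mdm4 (-0.65, then +0.27) and Ccng1 (-0.64, then +0.44), the Sesn2 steps from 120 to 240 min in the nucleus (+0.40) and 60 to 120 min in the cytosol (+0.22), and the Ccng1 difference between nucleus and membrane fraction (+0.31); with a pseudocount of 1 the rate change of Phlda3 (+0.13 in total RNA, +0.14 in the cytosol, +0.17 in the membrane fraction) and the Ppm1d difference (-0.065, and -0.0088 with 0.1). The cause was not tested. Few reads limit the precision of the listed Mdm2 values (1 to 9 reads) and of Cdkn1a at 240 min. The rate change, voom weights and recovered reads were chosen after seeing the data.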
